A study of Mus musculus with 12 samples.

Results

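The 9 genes described here take part in metal handling in the liver. They are the metallothioneins Mt1 and Mt2, the hepcidins Hamp and Hamp2, the transferrin receptor gene Tfrc and the transferrin gene Trf. The others are the ferritin subunit genes Ftl1 and Fth1, and Slc40a1, which encodes ferroportin. The genes were taken by name from a table of 55903 genes, and all 9 were found and were among the 10883 genes tested. RNA-seq of mouse liver gave 12 libraries, 4 in each of 3 groups. The reference group is of young control mice. Another is titled as an aged control but described as doxo, read here as doxorubicin, a chemotherapy drug that damages DNA, and it is called aged/doxo because the labels do not settle its age or treatment. The last group was treated with KSL0608-Se, a compound known here by its code only, and doxo stands in its description too. The series is titled for photoactivatable senolysis, the killing of senescent cells under light, so the comparisons ask what sets aged/doxo liver apart from young control liver and what differs after the compound. Strain, sex, age in weeks, dose and time are not given in these sources. No label ties a library to an animal, so p-values reflect library-to-library spread, which may be partly technical.

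Liver takes up iron from transferrin through its receptors, holds it inside ferritin shells built of heavy and light subunits, and releases it through ferroportin, the only known iron exporter. Hepcidin, a hormone made by hepatocytes when iron or inflammatory signals are high, causes ferroportin to be degraded and so keeps iron inside cells. Iron regulatory proteins bind hairpins called iron-responsive elements in the untranslated regions (UTRs) of several of these mRNAs. When iron is low they block translation of ferritin and ferroportin and protect the receptor's mRNA from decay. Much of this control acts on translation or protein, which RNA levels do not show. Metallothioneins are small cysteine-rich proteins that bind zinc and copper, and their genes are induced by metals, glucocorticoids and inflammation.

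The hairpins are shown because they set 4 of the genes apart from the rest by a feature of the mRNA itself. GENCODE M21 transcripts on GRCm38 were searched for a bulged C, 5 paired stem bases and a 6-base loop within 29 bases. The loop was CAGTG followed by A, C or T, and hairpins with other loops were not searched for. The search found 1 element in the 5′ UTR of each of Fth1, Ftl1 and Slc40a1 and 4 in the 3′ UTR of Tfrc. The loop is in capitals, and the sequences are written 5′ to 3′ on the mRNA strand.
Fth1, 5′ UTR, chr19:9982732-9982760, plus strand: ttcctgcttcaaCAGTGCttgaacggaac
Ftl1, 5′ UTR, chr7:45459779-45459807, minus strand: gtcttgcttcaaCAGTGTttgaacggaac
Slc40a1, 5′ UTR, chr1:45925465-45925493, minus strand: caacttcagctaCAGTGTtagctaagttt
Tfrc, 3′ UTR, chr16:32631219-32631247, plus strand: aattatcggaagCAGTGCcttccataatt
Tfrc, 3′ UTR, chr16:32631598-32631626, plus strand: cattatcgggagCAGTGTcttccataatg
Tfrc, 3′ UTR, chr16:32631663-32631691, plus strand: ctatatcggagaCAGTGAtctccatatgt
Tfrc, 3′ UTR, chr16:32631710-32631738, plus strand: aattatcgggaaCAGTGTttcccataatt
The same pattern occurred in the 5′ UTR of 22 of 22527 protein-coding genes (0.0977%) and in the 3′ UTR of 110 (0.488%). The search found no match in the UTRs of Mt1, Mt2, Hamp, Hamp2 or Trf.

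The metallothioneins and the hepcidins each form a neighbouring pair, and the 250 bases before the RefSeq start (GRCm38.p6) are shown to let the pairs be compared. RefSeq windows of 250 bases before to 50 after the start were matched for 7 of the 9 genes; Trf and Slc40a1 had none. Capitals mark the metal response element cores TGCACNC and TGCGCNC in Mt1 and Mt2, where GTGTGCA is a minus-strand match, and the BMP response element core GGCGCC and the STAT site TTCNNNGAA in Hamp and Hamp2. Both strands were searched.
Mt1, chr8:94178839-94179088, plus strand: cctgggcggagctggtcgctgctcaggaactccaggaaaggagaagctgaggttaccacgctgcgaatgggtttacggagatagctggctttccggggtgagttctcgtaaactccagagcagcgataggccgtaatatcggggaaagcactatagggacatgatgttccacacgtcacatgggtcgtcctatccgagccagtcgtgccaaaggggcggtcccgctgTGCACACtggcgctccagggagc
Mt2, chr8:94172368-94172617, plus strand: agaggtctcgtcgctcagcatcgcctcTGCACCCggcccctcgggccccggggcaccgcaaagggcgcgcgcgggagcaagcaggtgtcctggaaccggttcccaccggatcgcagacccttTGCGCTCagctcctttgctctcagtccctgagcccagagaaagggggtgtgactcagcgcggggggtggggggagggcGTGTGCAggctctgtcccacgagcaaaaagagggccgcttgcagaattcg
Hamp, chr7:30944030-30944279, minus strand: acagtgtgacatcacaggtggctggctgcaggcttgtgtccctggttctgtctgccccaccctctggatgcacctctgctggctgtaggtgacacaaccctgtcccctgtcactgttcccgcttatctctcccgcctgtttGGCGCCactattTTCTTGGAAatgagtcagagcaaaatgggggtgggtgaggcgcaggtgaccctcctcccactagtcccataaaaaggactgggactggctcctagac
Hamp2, chr7:30924182-30924431, minus strand: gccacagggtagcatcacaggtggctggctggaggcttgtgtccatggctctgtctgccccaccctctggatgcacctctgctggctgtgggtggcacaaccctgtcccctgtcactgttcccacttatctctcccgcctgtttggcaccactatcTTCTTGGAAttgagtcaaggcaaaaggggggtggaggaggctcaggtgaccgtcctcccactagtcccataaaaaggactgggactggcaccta
Over the full 300 bases, the Mt1 window held 3 metal response element cores, 23 bases before and 3 and 21 bases after the start. The Mt2 window held 4, at 223, 128 and 50 bases before and 5 bases after it. Only 1 window was searched for each of these genes, so sites near any other start are not counted. Mt2 also held TGACTCAGC, a match to the antioxidant response element core TGACNNNGC, 79 bases before the start. Among all 32851 RefSeq windows of this length, 25.7% held either metal response core and 12.4% the antioxidant core. Hamp and Hamp2 both carried TTCTTGGAA, a STAT site pattern found in 8.3% of windows, at 97 and 94 bases before the start. GGCGCC, found in 11.9% of windows, was in the Hamp window, 109 bases before the start, and was not in the Hamp2 window. The GENCODE span of Hamp2 begins farther upstream, at chr7:30924681. The 250 bases shown for Hamp2 thus lie inside that span, outside the exons of its coding transcripts, and sites near that start were not searched. A Tfrc window also held GGCGCC, 89 bases before the start, and 2 overlapping metal response element cores, 53 and 50 bases before it. These matches describe letters and are no measure of binding.

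Mt1 (chr8:94179082-94180327, plus strand) and Mt2 (chr8:94172664-94173568, plus strand) lie 5513 bases apart, and their coding sequences are 79.2% identical. Hamp (chr7:30942368-30944032, minus strand) and Hamp2 (chr7:30922372-30924681, minus strand) lie 17686 bases apart with 93.6% identical coding sequences and 92.4% identical transcripts. Reads of Hamp and Hamp2 could therefore be split between them by the authors' estimation, and the level of each is uncertain. The other genes lie apart, Tfrc at chr16:32608920-32632794, Trf at chr9:103204001-103230444, Ftl1 at chr7:45457944-45459884, Fth1 at chr19:9980598-9985098 and Slc40a1 at chr1:45908068-45926523, all protein-coding. Trf overlaps the annotated protein-coding gene Gm20425 on the same strand over 26307 bases, for which no value was used here. Genes annotated on the opposite strand of Ftl1, Mt2 and both hepcidins reached at most 1.56 TPM (Gm10252 at Ftl1), and the ferritin copy Ftl1-ps1 was listed at 12.2 TPM on average.

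TPM, a relative transcript abundance, scales each gene by its length and each library to the same total, so levels can be compared between genes, but it keeps no depth, and the depth behind each value is unknown. The libraries held 9568 to 11023 genes at 1 TPM or more. Young control 1 and aged/doxo 2 held the fewest, 9568 and 9741, and in aged/doxo 2 mitochondrial genes took 27.57% of all TPM against 8.1% to 12.43% in the other libraries. Values without these libraries are given beside results that they move. All 18 hepatocyte markers were in the table, and their summed level lay between 117500 and 172200 TPM in every library. The sum was not retaken without Trf, and both were lowest in aged/doxo 2 and highest in aged/doxo 4. It may therefore not be independent of the genes described here. Alb, a hepatocyte marker outside them, was at 16213.86 TPM or more in every library, so the labelled tissue carries a defining transcript. Marker genes of other cells were also present. Summed erythroid markers (10 of the 11 listed genes, mostly globins) were 838 to 1993 TPM in young control, 1840 to 2569 TPM in aged/doxo and 848 to 1779 TPM in treated libraries. Summed macrophage and Kupffer cell markers were 234.5 to 417.1 TPM, 94.62 to 601.3 TPM and 243.2 to 371.1 TPM in the same order. No marker was at 0 in all libraries. In these bulk samples, fewer cells of a type and less RNA per cell cannot be told apart.

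The 9 genes ranged widely in level, from Trf at a mean of 12860 TPM over all libraries, the 13th most abundant gene in the table, down to Mt2 at 3.30 TPM. Ftl1 followed Trf at 4630 TPM, then Hamp at 3089 TPM, Fth1 at 2272 TPM and Hamp2 at 210.2 TPM. Slc40a1 at 15.29 TPM, Mt1 at 14.06 TPM and Tfrc at 5.63 TPM were far lower. Trf was above Ftl1, Fth1 above Hamp2, and Hamp2 above Slc40a1 in all 12 libraries without overlap of their ranges. The other neighbours in this order overlapped. Ftl1 exceeded Hamp in 10 of 12 libraries and Hamp exceeded Fth1 in 10, Slc40a1 exceeded Mt1 in 8, Mt1 exceeded Tfrc in 10, and Tfrc exceeded Mt2 in 10. The plot of levels by library shows each value.

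**Figure D1:**
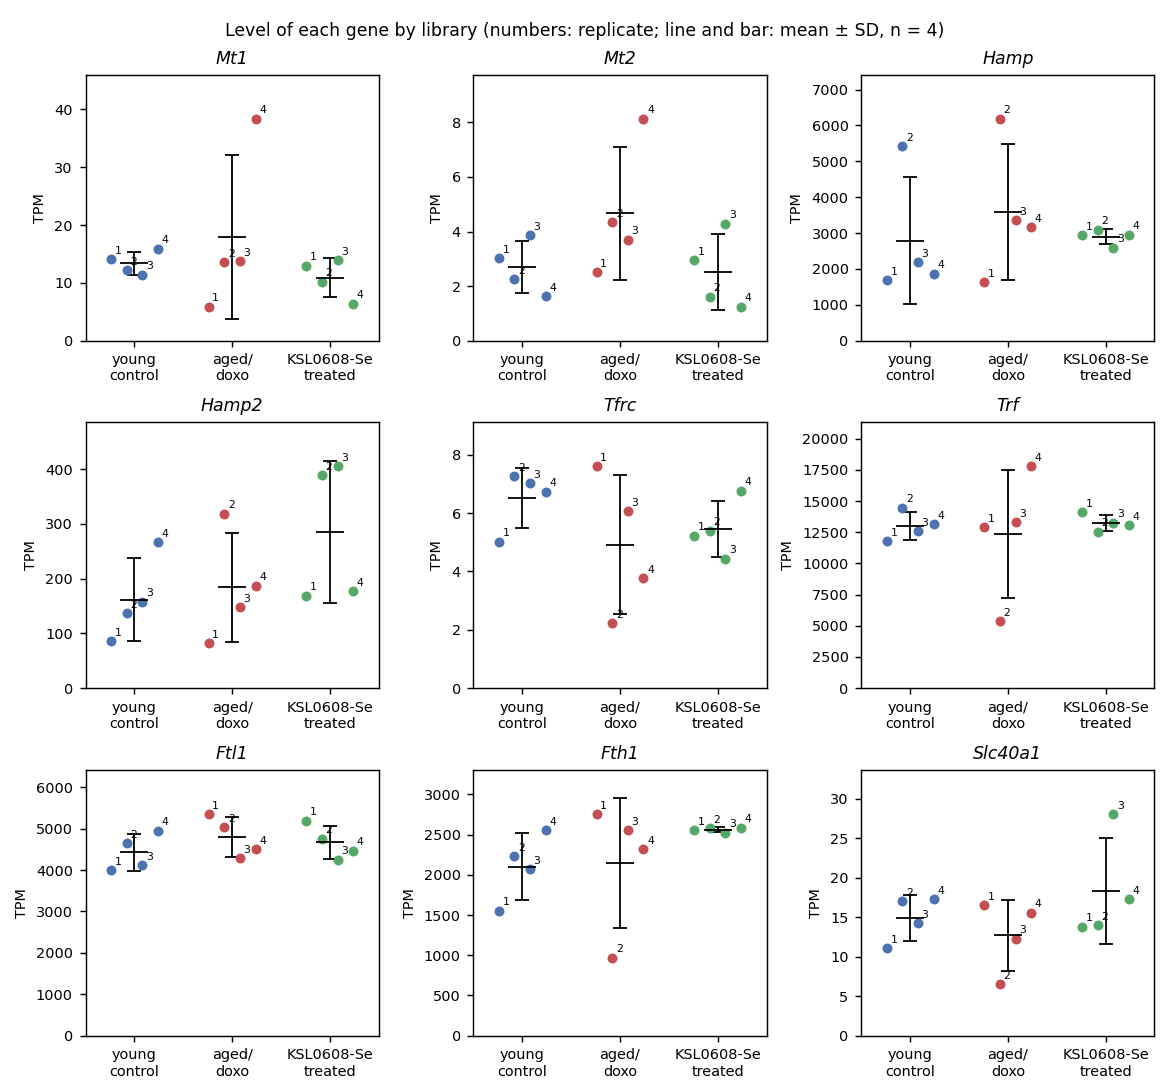
Level of each of the 9 genes in TPM (vertical axis, from 0, a scale for each gene) in the 12 libraries by group, with the replicate number beside each point and the mean ± SD of 4 libraries as line and bar. The groups of every gene overlap, and treated libraries lie close together for Fth1 (2524.04 to 2589.03 TPM) and Hamp (2596.41 to 3089.69 TPM).

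None of the 9 genes passed the test in any of the 3 comparisons, with limma on log2(TPM + 1) and Benjamini-Hochberg adjustment over all 10883 genes at a threshold of 0.05. In aged/doxo against young control, 0 of 9 were called, beside 0.00919% of all genes, and 0 of 9 had an unadjusted p under 0.05, beside 1.98% of all genes. In treated against aged/doxo, 0 of 9 were called, beside 0.00919%, and 0 of 9 had an unadjusted p under 0.05, beside 4.77%. In treated against young control the shares of all genes were 0.0276% and 3.4%, again beside 0 of 9 and 0 of 9. Single differences of Mt1, Mt2, Hamp, Hamp2, Tfrc and Slc40a1 came under an unadjusted p of 0.05 under another scaling, with array weights or with libraries left out, and none was called there. At any of these shares fewer than 1 gene of 9 would be counted. The groups of each gene overlapped in each comparison, whereas they did not overlap for 1.0%, 3.13% and 4.02% of all genes in the same order. The comparisons share libraries and are not independent.

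On the log2 scale, 5 of the 9 genes were higher and 4 lower in aged/doxo than in young control, with a median difference of 0.12 beside -0.08 for all genes. In treated against aged/doxo 5 were higher and 4 lower, with a median of 0.21 beside 0.30 for all genes, and in treated against young control 6 were higher and 3 lower, with 0.08 beside 0.23. The median of all genes was thus itself shifted in the comparisons with treated libraries. After median-of-ratios scaling these medians of all genes were 0.03 and -0.01, and without young control 1 and aged/doxo 2 they were 0.13 and 0.09. Small positive differences against aged/doxo are to be read against that shift.

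**Figure D2:**
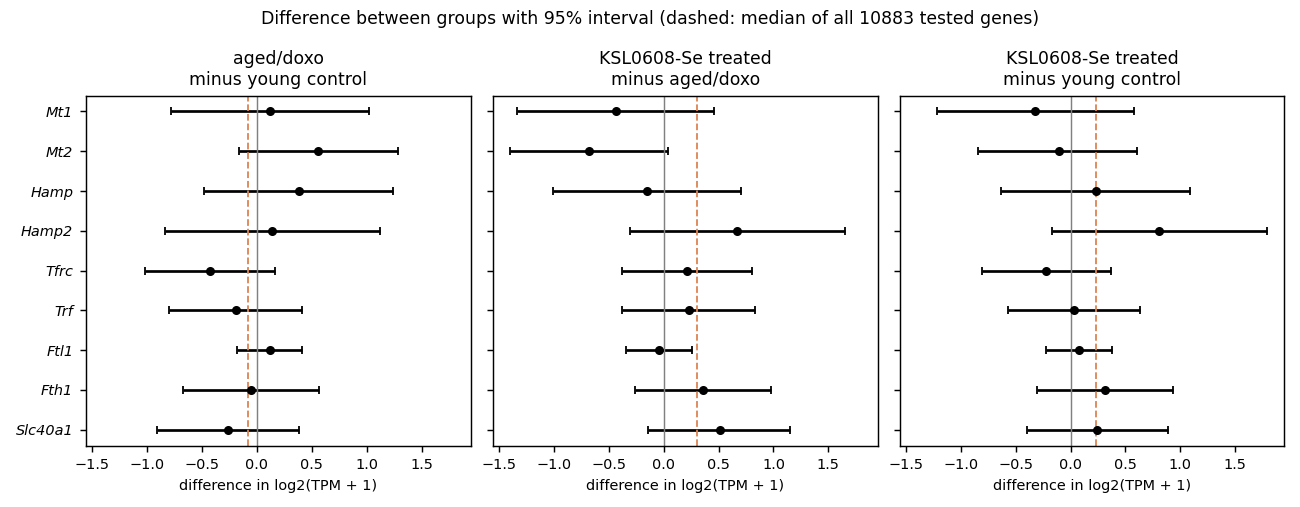
Difference between groups in log2(TPM + 1) (horizontal axis) for each of the 9 genes in the 3 comparisons, with 95% intervals from limma, the zero line and, dashed, the median of all 10883 genes. Every interval includes 0; that of Mt2 in treated minus aged/doxo runs from -1.40 to 0.04.

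Mt1 and Mt2 were the metallothioneins measured; the table listed Mt3 at 0.0158 TPM on average and Mt4 at 0. Mt1 stood at 14.06, 12.23, 11.40 and 15.90 TPM in young control libraries 1 to 4. In aged/doxo libraries 1 to 4 it stood at 5.90, 13.57, 13.78 and 38.36 TPM. In treated libraries it stood at 12.99, 10.22, 13.91 and 6.36 TPM. The aged/doxo group thus held both the lowest and the highest Mt1 value, and its mean of 17.9 ± 14.1 TPM (SD, n = 4) owes its height to library 4. The difference of aged/doxo from young control was 0.12 ± 0.42 (log2, SE; adjusted p = 1.0, limma) and changed sign to -0.33 without aged/doxo 4. Treated minus aged/doxo was -0.44 ± 0.42 for Mt1 (adjusted p = 0.504, limma) and was 0.01 without the same library, but -0.83 without aged/doxo 1 (adjusted p = 0.214).

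Mt2 was at 3.03, 2.26, 3.86 and 1.63 TPM in young control libraries and 2.50, 4.34, 3.70 and 8.13 TPM in aged/doxo libraries. Treated libraries held 2.95, 1.61, 4.29 and 1.24 TPM. Aged/doxo 4 was again the highest of the 12, and the lowest was treated 4. Treated minus aged/doxo, -0.68 ± 0.33 on the log2 scale, came closest of all 27 differences to an unadjusted p of 0.05 without reaching it (adjusted p = 0.427, limma; 95% interval -1.40 to 0.04). Aged/doxo minus young control was 0.56 ± 0.33 for Mt2 (adjusted p = 1.0, limma), with group means of 4.67 ± 2.43 and 2.70 ± 0.965 TPM (SD, n = 4). Leaving out aged/doxo 4 brought these differences of Mt2 to -0.42 and 0.30, and leaving out aged/doxo 1 brought them to -0.88 and 0.77, both then at an unadjusted p under 0.05 (adjusted p = 0.214 and 0.788, limma). After median-of-ratios scaling, treated minus aged/doxo was -0.93 for Mt2, again at an unadjusted p under 0.05 (adjusted p = 0.565, limma).

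Mt1 and Mt2 were high in the same library. Over the 12 libraries, Pearson's r was 0.73 (permutation p = 0.00953, adjusted over 6 pairs 0.0453) and Spearman's rho was 0.53 (permutation p = 0.0806, adjusted 0.314). Without aged/doxo 1 and 4, the libraries farthest from the median of Mt1, r was 0.55, and without young control 1 and aged/doxo 2 it was 0.74. Mt1 exceeded Mt2 by 2.36 to 9.76 times, with a median of 4.52 times.

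**Figure D3:**
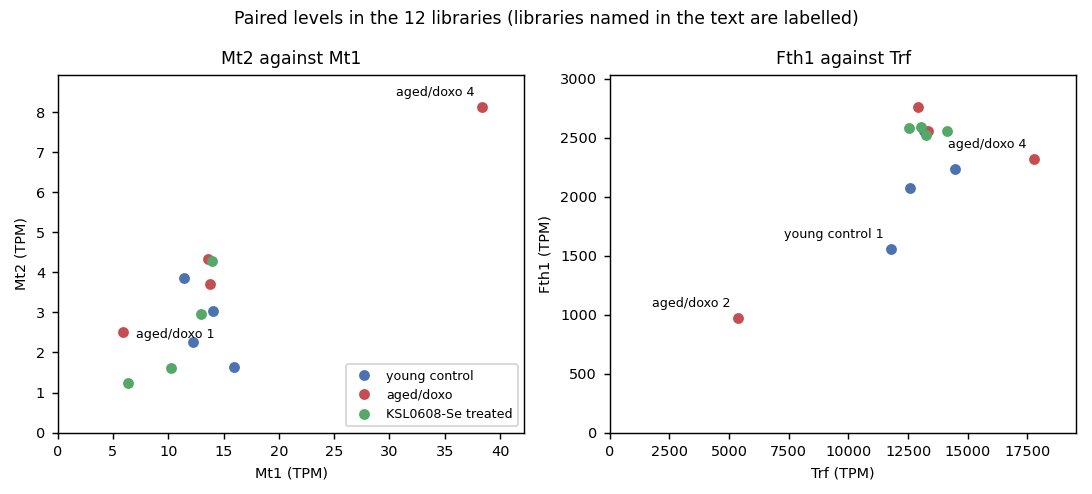
Level of Mt2 against Mt1 (left) and of Fth1 against Trf (right), both axes in TPM from 0, with 1 point for each of the 12 libraries coloured by group. In the left panel aged/doxo 4 lies apart at 38.36 and 8.13 TPM, and in the right panel aged/doxo 2 lies apart at 5380.66 and 972.38 TPM.

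Of the other zinc and metallothionein genes, none passed the test. The list held 19 tested genes, Mt1 and Mt2 included, with 0 called and 0 at an unadjusted p under 0.05 in each comparison by limma. Its median difference was -0.08 in aged/doxo against young control, 0.37 in treated against aged/doxo and 0.25 in treated against young control, beside -0.08, 0.30 and 0.23 for all genes. These medians were -0.09, 0.24 and 0.06 without young control 1 and aged/doxo 2, beside -0.04, 0.13 and 0.09 for all genes. Mtf1, which encodes the metal-sensing factor that binds metal response elements, was at 2.27 TPM in aged/doxo and 3.45 TPM in treated libraries (log2 difference 0.49 ± 0.27, adjusted p = 0.427, limma). Mt1 and Mt2 were the only 2 of the 19 that were lower in treated than in aged/doxo libraries, where the other 17 were higher. The 13 tested copper genes likewise held 0 called and 0 at an unadjusted p under 0.05 in each comparison, with medians of -0.06, 0.23 and 0.14, or -0.01, 0.00 and 0.04 without those libraries. Among them Cox17, a copper chaperone of mitochondria, was 0.37 lower in treated than in aged/doxo libraries (SE 0.20, adjusted p = 0.427, limma).

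Metallothionein genes answer to glucocorticoids, and a list of 16 tested glucocorticoid response genes, Mt1 and Mt2 included, was set beside them. None was called, and 1, Cdkn1a, was higher at an unadjusted p under 0.05 in aged/doxo against young control. At such a p, 5 were higher in treated against aged/doxo and 4 in treated against young control. The shares of all genes at that p, in either direction, were the 1.98%, 4.77% and 3.4% above, and 416 of the 519 such genes in treated against aged/doxo were higher. List medians were -0.19, 0.48 and 0.32, beside -0.08, 0.30 and 0.23 for all genes. Without young control 1 and aged/doxo 2 they were 0.01, 0.24 and 0.19, beside -0.04, 0.13 and 0.09. Angptl4 was then no longer at an unadjusted p under 0.05 in treated against aged/doxo (0.81 ± 0.39). The gluconeogenic gene G6pc, glucose-6-phosphatase, was 1.58 ± 0.41 higher in treated than in aged/doxo libraries (log2; adjusted p = 0.427, limma), whereas Mt1 and Mt2 were lower there. Cdkn1a, the cell cycle inhibitor p21, was 2.07 ± 0.37 higher in aged/doxo and 2.26 ± 0.37 higher in treated than in young control libraries (adjusted p = 0.307 and 0.0987, limma). It was called in treated against young control once young control 1 and aged/doxo 2 were left out (1.96 ± 0.27, adjusted p = 0.0419, limma).

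Hamp was at 1677.50, 5417.37, 2192.94 and 1860.47 TPM in young control libraries and 1631.99, 6184.33, 3352.88 and 3164.89 TPM in aged/doxo libraries. Treated libraries held 2946.70, 3089.69, 2596.41 and 2952.08 TPM. Library 2 was the highest of its group in all 3 groups, by a wide margin in the first 2, and the treated values all lay inside the range of the others. The coefficient of variation (SD over mean) was 63.4% in young control, 52.9% in aged/doxo and 7.27% in treated libraries; no test of the spread was made. Group means were 2787 ± 1766, 3584 ± 1897 and 2896 ± 210.5 TPM (SD, n = 4). Differences of Hamp in log2(TPM + 1) were 0.38 ± 0.40 for aged/doxo minus young control, -0.15 ± 0.40 for treated minus aged/doxo and 0.23 ± 0.40 for treated minus young control (adjusted p = 1.0, 0.808 and 0.793, limma). The 3 became -0.12, 0.16 and 0.04 without young control 1 and aged/doxo 2. Single libraries moved the first widely: it was 0.76 without young control 2, at an unadjusted p under 0.05 (adjusted p = 1.0, limma), and 0.07 without aged/doxo 2.

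Hamp2, a second hepcidin gene of mice, was at 85.59, 137.05, 157.66 and 266.15 TPM in young control and 81.79, 318.59, 148.23 and 187.54 TPM in aged/doxo libraries. In treated libraries 2 and 3 it was the highest of all, 388.68 and 405.14 TPM, and in treated 1 and 4 it was 168.86 and 177.15 TPM. The mean was therefore highest in treated libraries, 285.0 ± 129.5 TPM against 184.0 ± 99.8 and 161.6 ± 76.0 TPM (SD, n = 4), and the ranges overlapped. Treated minus young control was 0.81 ± 0.45 for Hamp2 (95% interval -0.17 to 1.79; adjusted p = 0.734, limma), and treated minus aged/doxo was 0.67 ± 0.45 (95% interval -0.31 to 1.65; adjusted p = 0.428). Without young control 1 and aged/doxo 2 the latter was 0.99 ± 0.40, with an unadjusted p under 0.05 (adjusted p = 0.699, limma), and with limma's array weights, which count variable libraries less, it was 1.04 (adjusted p = 0.0659), the smallest adjusted p of the 9 genes under any setting tried. Aged/doxo minus young control was 0.14 ± 0.45 for Hamp2 and -0.44 without those libraries. Treated minus young control was 0.55 without young control 1 and 1.09 without young control 4 for Hamp2.

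The 2 hepcidins did not keep a fixed ratio. Hamp over Hamp2 was 19.95, 19.41, 22.62 and 16.88 in aged/doxo libraries, but 19.6, 39.53, 13.91 and 6.99 in young control and 17.45, 7.95, 6.41 and 16.66 in treated libraries. It ran from 6.41 to 39.53 over all libraries, with a median of 17.16. Pearson's r of Hamp and Hamp2 was 0.38 (permutation p = 0.22) and Spearman's rho 0.3 (permutation p = 0.343). It was 0.50 without aged/doxo 2 and young control 2, the farthest from the Hamp median, and 0.07 without young control 1 and aged/doxo 2.

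**Figure D4:**
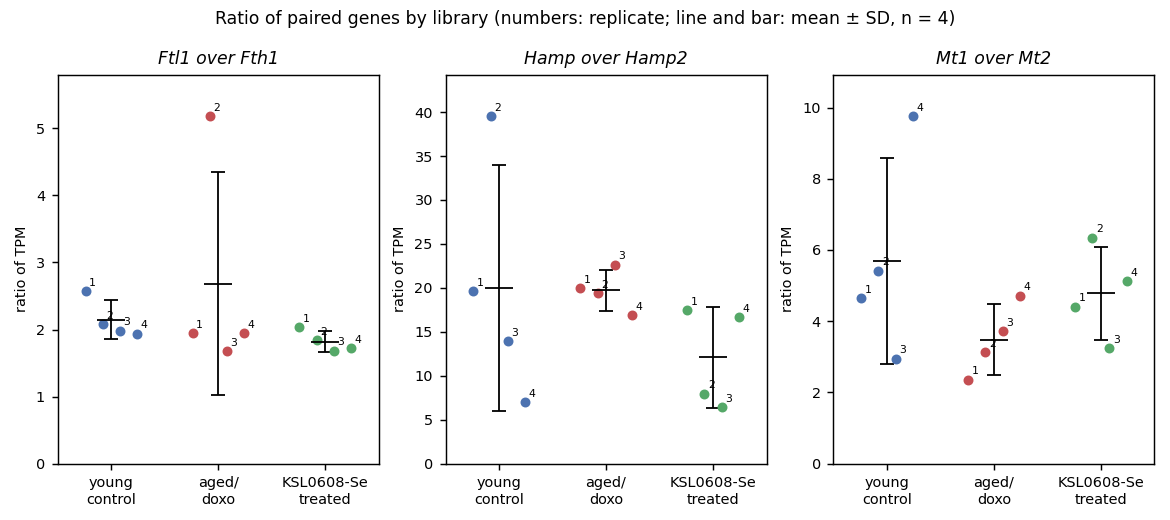
Ratio of TPM (vertical axis, from 0) of Ftl1 over Fth1, Hamp over Hamp2 and Mt1 over Mt2 in each of the 12 libraries by group, with the replicate number beside each point and the mean ± SD of 4 libraries. Ftl1 over Fth1 lies between 1.68 and 2.08 apart from young control 1 at 2.57 and aged/doxo 2 at 5.18, while the other 2 ratios vary several-fold within groups.

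Genes of the pathways that control hepcidin were measured in 28 tested genes of BMP-SMAD and IL6-STAT3 signalling. None was called in any comparison. At an unadjusted p under 0.05 by limma, 0 genes passed in the first 2 comparisons, beside 1.98% and 4.77% of all genes. In treated against young control 2 of the 28 passed, beside 3.4% of all genes. These were Bmp2, a ligand made by sinusoidal endothelial cells that drives hepcidin transcription, at 2.40 against 1.33 TPM (log2 difference 0.58 ± 0.22, adjusted p = 0.734), and the BMP target Id3 at 56.7 against 90.6 TPM (-0.70 ± 0.30, adjusted p = 0.734). Creb3l3, a hepatocyte factor of the stress response, had the smallest p in treated against aged/doxo (0.89 ± 0.42, adjusted p = 0.427, limma; 0.56 ± 0.30 without young control 1 and aged/doxo 2). Id3 was no longer at an unadjusted p under 0.05 without those libraries (-0.69). Bmp2 is itself on the list of sinusoidal endothelial markers. At an unadjusted p under 0.05, 7 of 14 were higher and 1 lower in treated against aged/doxo, beside 4.77% of all genes. In treated against young control 4 of 14 were higher, beside 3.4%. Without young control 1 and aged/doxo 2, Oit3 and Stab1 were among those no longer at such a p in the former, and Flt4 and Dnase1l3 in the latter. List medians were 0.64 and 0.59, beside 0.30 and 0.23 for all genes. Without those libraries they were 0.60 and 0.46, beside 0.13 and 0.09. The summed level of these markers was 58.3 to 137.3 TPM in young control, 62.7 to 142.6 TPM in aged/doxo and 95.1 to 182.1 TPM in treated libraries. Their part in the values of hepcidin control genes was not tested. Of 23 tested acute phase genes, 0 were called, and 1, Saa3 (serum amyloid A3), was lower at an unadjusted p under 0.05. Its difference was -0.83 ± 0.31 in treated against aged/doxo libraries (adjusted p = 0.427, limma), where 4.77% of all genes passed in either direction. Without young control 1 and aged/doxo 2, Saa3 was -0.77 and Orm2 -0.92 there (adjusted p = 0.699, limma). In aged/doxo against young control, Orm2 was then 0.84 and Orm3 0.95 (adjusted p = 0.997, limma). Each had an unadjusted p under 0.05, and 0 of the 23 genes were called. In that comparison 16 genes were then higher and 7 lower, with a list median of 0.15 beside -0.04 for all genes. In treated against aged/doxo 10 were higher and 13 lower, with -0.10 beside 0.13.

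Trf made up 1.29% of all TPM on average. It was at 11767.75, 14467.20, 12584.19 and 13155.80 TPM in young control, against 14111.45, 12553.32, 13263.76 and 13059.91 TPM in treated libraries. Aged/doxo libraries held 12899.69, 5380.66, 13325.16 and 17774.60 TPM, so that this group had both the lowest value, in library 2, and the highest, in library 4. Differences of Trf were -0.19 ± 0.28, 0.23 ± 0.28 and 0.03 ± 0.28 in log2(TPM + 1) for aged/doxo minus young control, treated minus aged/doxo and treated minus young control (adjusted p = 1.0, 0.603 and 0.963, limma). They turned to 0.12, -0.13 and -0.02 without young control 1 and aged/doxo 2.

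Tfrc encodes the receptor that takes up iron-loaded transferrin, and the search found 4 hairpins in its 3′ UTR. Tfrc was at 5.02, 7.27, 7.02 and 6.74 TPM in young control. Aged/doxo libraries held 7.60, 2.23, 6.07 and 3.76 TPM and treated libraries 5.22, 5.39, 4.43 and 6.77 TPM. Aged/doxo 1 was the highest of all 12 and aged/doxo 2 the lowest. Aged/doxo minus young control was -0.43 ± 0.27 for Tfrc (95% interval -1.02 to 0.16; adjusted p = 1.0, limma) and -0.28 without young control 1 and aged/doxo 2. Treated minus aged/doxo was 0.21 ± 0.27 and turned to -0.05 without them, to -0.05 after median-of-ratios scaling and to -0.06 after quantile normalization. Treated minus young control was -0.22 ± 0.27 (adjusted p = 0.742) and -0.47 after median-of-ratios scaling, at an unadjusted p under 0.05 (adjusted p = 0.964, limma). Leaving out aged/doxo 1 or 2 brought aged/doxo minus young control to -0.64 or -0.17 for Tfrc.

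Ftl1, the ferritin light subunit, varied least of the 9 genes over all libraries, with a coefficient of variation of 9.43%. It was at 4001.67, 4643.72, 4111.90 and 4953.68 TPM in young control, 5356.43, 5038.17, 4285.76 and 4503.30 TPM in aged/doxo, and 5193.02, 4755.46, 4254.64 and 4468.24 TPM in treated libraries. The 3 ranges overlapped, and the lowest value was in young control 1 and the highest in aged/doxo 1. Its intervals were also the narrowest: aged/doxo minus young control was 0.12 (95% interval -0.18 to 0.41), treated minus aged/doxo -0.04 (-0.34 to 0.26) and treated minus young control 0.08 (-0.22 to 0.38), on the log2 scale by limma.

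Fth1, the heavy subunit that oxidises iron for storage, was at 1554.83, 2231.30, 2073.93 and 2552.98 TPM in young control and 2758.07, 972.38, 2554.21 and 2316.77 TPM in aged/doxo libraries. Treated libraries held 2557.18, 2581.81, 2524.04 and 2589.03 TPM. The treated values were nearly equal. They lay above young control 1 to 3 and aged/doxo 2 and 4, around young control 4 and aged/doxo 3, and below aged/doxo 1. The coefficient of variation was 1.14% in treated, 19.8% in young control and 37.5% in aged/doxo libraries; no test of the spread was made. Treated minus young control was 0.31 ± 0.29 and treated minus aged/doxo 0.36 ± 0.29 for Fth1 (adjusted p = 0.734 and 0.45, limma). Without young control 1 and aged/doxo 2, the lowest Fth1 libraries, these were 0.17 and 0.01.

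Fth1 and Ftl1 both carry the 5′ hairpin shown above, and their ratio was alike in all but 2 libraries. Ftl1 over Fth1 was 5.18 in aged/doxo 2 and 2.57 in young control 1, and between 1.68 and 2.08 in the other 10 libraries. Pearson's r of Ftl1 and Fth1 was 0.07 over 12 libraries (permutation p = 0.838; Spearman's rho 0.42, permutation p = 0.176), -0.29 without aged/doxo 1 and young control 1, the farthest from the Ftl1 median, and 0.59 without young control 1 and aged/doxo 2. Fth1 and Trf gave r = 0.84 (permutation p = 0.0189, adjusted over 6 pairs 0.0453), yet Spearman's rho was 0.2 (permutation p = 0.527) and r was -0.28 without aged/doxo 2 and young control 1, so that the relation rests on those libraries. Tfrc and Fth1 gave r = 0.72 (permutation p = 0.0226, adjusted 0.0453; rho 0.45, permutation p = 0.15), which was 0.22 without aged/doxo 2 and 4, the farthest from the Tfrc median, and 0.01 without young control 1 and aged/doxo 2, so that it too rests on such libraries. Tfrc and Slc40a1 gave r = 0.51 (permutation p = 0.102; rho 0.39, permutation p = 0.21) and -0.12 without aged/doxo 2 and 4.

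Of the 16 tested genes for iron storage and its sensing by iron regulatory proteins, ferritins and hepcidins included, 0 were called in any comparison. Higher at an unadjusted p under 0.05 were 2 genes in treated against aged/doxo and 2 in treated against young control, and 0 in the first comparison, beside 4.77%, 3.4% and 1.98% of all genes in either direction. Nfe2l2, which encodes the oxidative stress factor NRF2 that activates ferritin genes, was at 8.39, 17.36, 12.89 and 21.66 TPM in young control, 27.73, 12.93, 24.56 and 17.58 TPM in aged/doxo and 27.19, 31.71, 32.17 and 24.99 TPM in treated libraries. Treated and young control libraries did not overlap, which held for 4.02% of all genes too. The log2 difference of Nfe2l2 was 0.97 ± 0.29 (adjusted p = 0.734, limma), and 0.73 without young control 1 and aged/doxo 2. Herc2, a ubiquitin ligase gene, was at 3.04 TPM in treated against 1.48 TPM in aged/doxo libraries (0.72 ± 0.22, adjusted p = 0.427, limma) and 1.69 TPM in young control libraries (0.60 ± 0.22, adjusted p = 0.734). Hif1a, a hypoxia-responsive factor, was 0.69 ± 0.32 higher in treated than in aged/doxo libraries (adjusted p = 0.427), and 0.45 ± 0.23 without young control 1 and aged/doxo 2, no longer at an unadjusted p under 0.05.

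Slc40a1, the exporter, was at 11.06, 16.98, 14.20 and 17.29 TPM in young control and 16.47, 6.53, 12.29 and 15.57 TPM in aged/doxo libraries. Treated libraries held 13.80, 13.97, 28.05 and 17.28 TPM. Treated 3 was the highest and aged/doxo 2 the lowest of the 12, and the groups overlapped. Treated minus aged/doxo was 0.51 ± 0.30 for Slc40a1 (95% interval -0.14 to 1.15; adjusted p = 0.427, limma) and 0.24 without young control 1 and aged/doxo 2. Aged/doxo minus young control was -0.26 ± 0.30 and treated minus young control 0.24 ± 0.30 (adjusted p = 1.0 and 0.742). The former was 0.00 without aged/doxo 2, and the latter 0.02 without treated 3, which also brought treated minus aged/doxo to 0.29.

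Kupffer cells, the liver macrophages that recycle iron from red cells, are rich in ferroportin, and 15 of 16 of their tested markers were lower in aged/doxo than in young control libraries, with a median of -0.46 and 0 called. In treated against aged/doxo 15 of 16 were higher, with a median of 0.51 and 0 called. At an unadjusted p under 0.05 there was 1 of them, beside 4.77% of all genes. The medians of all genes in these comparisons were -0.08 and 0.30. Leaving out young control 1 and aged/doxo 2 brought the marker medians to -0.18 and 0.24, beside -0.04 and 0.13 for all genes, with 15 of 16 lower and 15 of 16 higher. Aged/doxo 2, the lowest library for Slc40a1, was also the lowest for the summed markers, at 94.62 TPM, whereas aged/doxo 4 had the highest sum, 601.3 TPM, with Slc40a1 at 15.57 TPM. Of 6 tested erythroid markers, 4 were higher in aged/doxo than in young control at an unadjusted p under 0.05, beside 1.98% of all genes. The same 4, all globin genes, were lower in treated than in aged/doxo at such a p, beside 4.77%. The other 2, Alas2 and Klf1, were higher there. List medians were 0.81 and -0.70, and without young control 1 and aged/doxo 2 they were 0.82 and -0.67. Hbb-bt was then no longer at such a p in the first comparison, and only Hba-a1 remained in the second. The part of either cell type in the levels of the iron genes was not tested.

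The remaining iron import and export genes, 21 tested with Tfrc, Trf and Slc40a1, held 0 called. Their median differences were -0.25, 0.47 and 0.24 in the 3 comparisons, and -0.11, 0.16 and 0.07 without young control 1 and aged/doxo 2, beside -0.04, 0.13 and 0.09 for all genes. At an unadjusted p under 0.05 stood 1.98%, 4.77% and 3.4% of all genes in the 3 comparisons, in either direction. Of the 21, 0 did so in the comparisons with treated libraries, and 1 was lower in aged/doxo than in young control by limma. It was Scara5, a ferritin receptor, at 0.615 against 1.84 TPM (log2 difference -0.77 ± 0.28, adjusted p = 1.0), and -0.65 without those libraries, no longer at an unadjusted p under 0.05. Haem genes, 19 tested, held 0 called. Beside 1.98% and 3.4% of all genes, 1 haem gene was at an unadjusted p under 0.05 in each comparison with young control. It was Alas1, the rate-limiting enzyme of haem synthesis in the liver, at 135.13, 173.53, 192.54 and 57.37 TPM in young control, 96.65, 19.67, 65.91 and 26.72 TPM in aged/doxo and 53.28, 44.48, 54.18 and 96.37 TPM in treated libraries. Young control libraries 1 to 3 were above all other libraries, and young control 4 lay among the others. The difference of Alas1 from young control was -1.54 ± 0.50 in aged/doxo (adjusted p = 1.0, limma) and -1.08 ± 0.50 in treated libraries (adjusted p = 0.734), and without young control 1 and aged/doxo 2 it was -1.15 and -1.06, neither at an unadjusted p under 0.05. The 25 tested genes of mitochondrial iron and iron-sulfur assembly held 0 called and 0 at an unadjusted p under 0.05 in each comparison, with medians of -0.09, 0.23 and 0.20, or -0.03, 0.07 and 0.04 without those libraries.

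**Figure D5:**
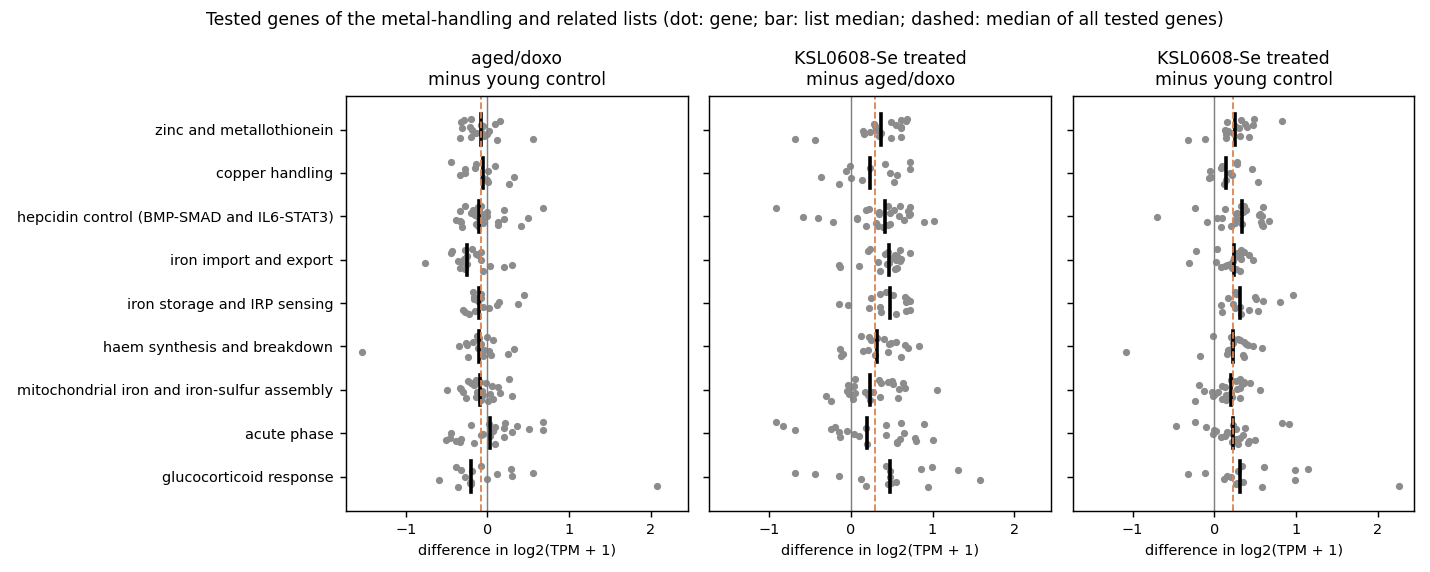
Difference in log2(TPM + 1) (horizontal axis) of each tested gene of 9 gene lists (rows) in the 3 comparisons, with the list median as a black bar and the median of all genes dashed. List medians lie near the dashed lines at -0.08, 0.30 and 0.23; single genes far from them include Alas1 among haem genes (-1.54 and -1.08) and, in the glucocorticoid list, Cdkn1a (2.07 and 2.26) and G6pc (1.58 in treated minus aged/doxo).

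The genes whose log2(TPM + 1) followed 8 of the 9 most closely over the 12 libraries, among the 10882 others tested, are given as a description. For Fth1 they were Msra (r = 0.993), Mdh2 (0.991) and Creg1 (0.990), and for Trf Psmb1 (0.977), Ppib (0.974) and Rab11a (0.972). The first of each was 0.905 and 0.85 without young control 1 and aged/doxo 2. Slc25a45 was closest to Tfrc (0.956), Klhl9 to Slc40a1 (0.946), AI413582 to Mt2 (0.897) and Prkrip1 to Mt1 (0.877). Uckl1 was closest to Ftl1 (0.863) and Pan2 to Hamp (0.852). Without young control 1 and aged/doxo 2 these were 0.892 for Slc25a45, 0.857 for Klhl9, 0.894 for AI413582 and 0.937 for Prkrip1. Uckl1 was then at 0.831 and Pan2 at 0.739. Each nearest gene is the highest of 10882 correlations over 12 libraries, so a high value can arise by chance. None of these nearest genes was another of the 9.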

How the data were processed

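The deposited table holds TPM made by the authors for every gene and library, rounded to 2 decimals. Reads were handled with fastp, HISAT and RSEM, per the submitters' processing notes, without versions; genome build, strandedness and depth are not given in these sources. TPM sums to a constant, so abundant genes can shift all others, and near-identical copies share reads. From these values log2(TPM + 1), with a pseudocount of 1, was tested with limma 3.58.1 in R 4.3.3 in the 10883 genes with a mean of at least 1 TPM, all 12 libraries in one fit with group as the only term and a variance trend. Fold changes on this scale understate those of low genes. Tests were two-sided, adjusted by Benjamini-Hochberg over all tested genes, with a threshold of 0.05 and intervals of 95%. The procedure was tested on simulated data.

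Correlations used log2(TPM + 1) and 100000 permutations, two-sided. The 9 genes and 14 gene lists were chosen with earlier results of these data known. From each list, genes past the threshold and otherwise up to 4 of smallest p in a comparison could be named, and for each of the 9 genes the 3 genes of highest correlation; further names were chosen after their values were seen. The genes most like Hamp2 are not reported here. Alternatives covered pseudocount, filter, scaling, a replicate block, library weights, the compared groups alone and leaving out libraries. UTR hairpins, positions and identities came from GENCODE M21 transcripts on GRCm38, with Biopython 1.88 for alignment, and promoter windows from RefSeq (GRCm38.p6). Python 3.11.15 and matplotlib 3.10.9 made the figures.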

Additional observations from a re-analysis of the deposited data

Results flagged for a closer look

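Hamp in young control 2, at 5417.37 TPM, lay far from the other 3 libraries of its group, which held 1677.50 to 2192.94 TPM. Its gap to the nearest of them was 0.862 of the group's range, above Dixon's 95% critical value for 4 samples. It was the only one of 27 sets of 4 libraries (9 genes in 3 groups) beyond that value, and chance alone puts about 1 in 20 such sets beyond it.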

How the results depend on the processing

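Under the 23 settings tried besides the one reported, 0 of the 9 genes were called in any comparison, with a smallest adjusted p of 0.0659 by limma (Hamp2, treated minus aged/doxo, libraries weighted). Of 618 recomputed differences, 578 kept their direction and 40 turned, and 12 of the 27 differences turned nowhere. Some settings cannot change a difference. These are another filter, the replicate block, the compared groups alone, and leaving out a library of the group not compared. Values under them kept their direction by construction, so the 578 overstates how far the directions were put to a test. Mt2 could not be tested with a mean TPM of at least 5. With libraries weighted, aged/doxo minus young control turned to -0.26 for Hamp2, 0.05 for Trf and 0.22 for Fth1, and treated minus aged/doxo to -0.13 for Tfrc, -0.04 for Trf and 0.06 for Ftl1. Without young control 1 and aged/doxo 2, the first turned to -0.12 for Hamp, -0.44 for Hamp2, 0.12 for Trf and 0.16 for Fth1, the second to 0.16 for Hamp, -0.05 for Tfrc and -0.13 for Trf, and treated minus young control to -0.02 for Trf. After median-of-ratios scaling, treated minus aged/doxo turned to -0.05 for Tfrc and -0.11 for Trf, and treated minus young control to -0.06 for Hamp, -0.26 for Trf, -0.22 for Ftl1 and -0.03 for Slc40a1. Quantile normalization turned Tfrc in treated minus aged/doxo to -0.06, and a total without the 50 most abundant genes turned Trf and Ftl1 in treated minus young control to -0.15 and -0.10.

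With each library left out in turn, aged/doxo minus young control ran from -0.33 to 0.51 for Mt1 (turning without aged/doxo 4), -0.18 to 0.47 for Hamp2 and -0.41 to 0.16 for Trf (turning without aged/doxo 2, and Hamp2 also without young control 1), and -0.21 to 0.29 for Fth1 (without aged/doxo 2 or young control 4). Treated minus aged/doxo ran from -0.48 to 0.16 for Hamp, -0.05 to 0.42 for Tfrc and -0.13 to 0.44 for Trf (all turning without aged/doxo 2), -0.83 to 0.01 for Mt1 (without aged/doxo 4) and -0.09 to 0.02 for Ftl1 (without aged/doxo 1 or treated 3). Treated minus young control ran from -0.34 to 0.08 for Mt2 (without young control 3, treated 2 or treated 4) and -0.02 to 0.08 for Trf (without young control 1 or treated 1). The cause of these turns was not tested.

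The number of all genes called, 1, 1 and 3 in aged/doxo against young control, treated against aged/doxo and treated against young control (215, 519 and 370 at an unadjusted p under 0.05), also moved. In the first it was 0 without a filter or in the compared groups alone, 2 with a pseudocount of 0.1 or 0.01 or after quantile normalization, 3 after median-of-ratios scaling, with a total without the most abundant genes or without young control 1 and aged/doxo 2, 74 with libraries weighted, and 0 to 4 with each library left out. In the second it was 0 with a pseudocount of 0.01, without a filter or after any of the 3 rescalings, 2 in the compared groups alone, 77 with libraries weighted and 0 to 2 with each library left out. In the third it was 1 without a filter or in the compared groups alone, 5 with a total without the most abundant genes, 29 with libraries weighted, 6 without young control 1 and aged/doxo 2, and 1 to 6 with each library left out. The cause of these changes was not tested. Replicate numbers recur across groups, and no label says that they pair the libraries. Deviations of same-numbered libraries correlated between -0.58 and 0.393, above 0.1 in 2 of 12 pairs, and 2 libraries were closest to their own number. The libraries that stand apart weigh on this measure (young control 1 with aged/doxo 2, r = 0.575), so it does not settle whether the numbers pair libraries. With the replicate block the counts of all genes were 0, 0 and 1, and 0 of the 9 genes were called. Depth is unknown, so what it limits cannot be stated.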
